A study of Mus musculus with 36 samples.

Results

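Interferon-stimulated and antiviral response genes were examined as a set of 39 genes, taken by symbol from the 21442 genes of the count table, and all 39 had a row. The rule lists the genes by name and uses no measured value, although the list was drawn up with earlier results of these data known. RNA-seq had been done on 36 mouse libraries, with 3 libraries in each of 12 groups formed by 6 stages and 2 genotypes, to follow the loss of the zinc finger protein ZFP266 before, during and after reprogramming of fibroblasts to induced pluripotent stem cells (iPSCs). The labels name no interferon, infection or other immune stimulus beyond the vectors that carried the guide RNA. The MEF and reprogramming samples are labelled as strain 129.

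MEF samples were passage-2 mouse embryonic fibroblasts from E12.5 embryos, which carried Cas9, a Nanog-GFP reporter and a doxycycline-inducible cassette of the reprogramming factors with mOrange. They were harvested 96 h after transduction with a lentivirus that carried either a non-targeting guide RNA (WT) or a Zfp266 guide RNA (KO). Reprogramming samples taken 3, 5 or 7 days after induction (D3, D5 and D7) came from the same kind of cells, mixed with WT 129 MEFs without the cassette and transduced with either lentivirus. Doxycycline at 300 ng/ml and vitamin C were then given, and cells were sorted for mOrange, while the MEF samples were not induced and no sort is described for them. The KO libraries of these 4 stages were therefore populations of edited cells and not single clones. iPSC samples were clones from the WT or the KO reprogramming, started from single cells at day 15 and grown in puromycin without doxycycline. Embryonic stem cell (ESC) samples were 3 WT libraries of 1 parental Cas9 line and 3 KO libraries of clones made from that line by transfection of a guide plasmid.

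Interferons are secreted proteins that bind cell surface receptors and, through JAK kinases, switch on transcription factors such as STAT2 and IRF9. Promoters of the antiviral genes that they turn on hold the interferon-stimulated response element (ISRE), and those of some interferon-induced genes hold the gamma-activated sequence (GAS). The pathway is started by sensors of viral RNA such as RIG-I (Ddx58) and MDA5 (Ifih1). Fibroblasts are known to respond readily to interferon, while ESCs are known to respond weakly and to express some of the antiviral genes constitutively.

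Promoter sequence was read for the members from RefSeq on GRCm38.p6, in a window from 250 bases before to 50 bases after the annotated start, and 34 of the 39 genes had such a window. The core of the ISRE, which is GAAA, any 2 bases and GAAA again on either strand, was found in 15 of these 34 genes (44.1%), against 3.99% of all 27025 genes with a window. The GAS, TTCNNNGAA, was found in 10 of 34 (29.4%), against 9.55% of all genes. The ISRE core and the GAS can share bases, as they did near the Ifitm3 start. Printed below are members whose levels are described in the following paragraphs, chosen to show windows with the ISRE core, which is in capitals on whichever strand it lay. Each sequence runs 5′ to 3′ on the strand of the gene.
Isg15: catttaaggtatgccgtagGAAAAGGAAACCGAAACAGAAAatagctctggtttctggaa
Ifit1: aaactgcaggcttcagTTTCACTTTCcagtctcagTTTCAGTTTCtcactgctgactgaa
Ifit3: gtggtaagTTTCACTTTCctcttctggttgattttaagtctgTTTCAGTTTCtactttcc
Rsad2: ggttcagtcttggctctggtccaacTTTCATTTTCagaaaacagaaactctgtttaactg
Bst2: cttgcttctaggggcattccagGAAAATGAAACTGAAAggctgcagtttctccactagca
Oas1a: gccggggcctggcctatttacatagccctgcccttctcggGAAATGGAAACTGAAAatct
Gbp3: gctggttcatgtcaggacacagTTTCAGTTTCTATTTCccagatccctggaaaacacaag
Ddx58: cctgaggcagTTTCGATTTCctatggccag
Trim21: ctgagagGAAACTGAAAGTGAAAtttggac
Ifitm3: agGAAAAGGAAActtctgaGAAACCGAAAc
These stretches lie at chr4:156200856-156200915 (Isg15), chr19:34640769-34640828 (Ifit1), chr19:34583365-34583424 (Ifit3), chr12:26456538-26456597 (Rsad2), chr8:71537565-71537624 (Bst2), chr5:120907526-120907585 (Oas1a), chr3:142559977-142560036 (Gbp3), chr4:40239804-40239833 (Ddx58), chr7:102565447-102565476 (Trim21) and chr7:141010715-141010744 (Ifitm3). Ifit1, Ifit3 and Gbp3 were on the plus strand and the others on the minus strand. Isg15, Bst2, Oas1a, Gbp3 and Trim21 held cores that overlapped each other, while Ifit1, Ifit3 and Ifitm3 held separate cores. Irf1 had no ISRE core in its window and held 1 GAS, in capitals here, at chr11:53769898-53769957 on the plus strand.
Irf1: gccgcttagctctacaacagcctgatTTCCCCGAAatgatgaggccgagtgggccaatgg

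Total counts were 19224103 to 39610939 per library, and a count of 0 allows for up to 3 reads (95% limit), equal to 2.31 to 5.22 normalised counts depending on the library. Normalised counts are the counts divided by 1 size factor per library, and all levels below are in this unit unless a length is named. The Zfp266 transcript was present in every library and cannot check the edit, since a Cas9 edit of a few bases need not lower the RNA. It was 2949 ± 136 in WT and 3200.0 ± 114 in KO MEFs (mean ± SD, n = 3), and differed at D3 (log2FC 0.32 ± 0.08 SE, FDR 0.00883) and in iPSCs (log2FC -0.39 ± 0.07 SE, FDR 9.95e-06). Checked against the labels, fibroblast markers summed to 422919 to 438506 in WT MEFs and to 122 to 143 in WT ESCs, and pluripotent cell markers to 74.2 to 81.7 and 145968 to 151958. MEF KO replicate 3 stood apart, with a fibroblast marker sum of 566429 against 394618 and 397848 in the other KO MEF libraries, an epithelial marker sum of 428 against 2772 and 2954, and the highest Stat2, Gbp2, Irf1, Irf9, Parp9 and Parp14 of the MEF libraries. iPS WT replicate 3 also stood apart from the other WT iPSC clones in several members, given below.

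In WT cells the set did not move as a block along the stages. Of the 39 members, 19 had their highest WT mean in MEFs, 0 at D3, 4 at D5, 7 at D7, 6 in iPSCs and 3 in ESCs. The first class held Ifit1, Ifit2, Ifit3, Isg15, Usp18, Rsad2, Irf7, Irf9, Irf1, Oasl2, Rtp4, Dhx58, Eif2ak2, Trim21, Ifitm2, Ifitm3, Psmb8, Psmb9 and Tap1. The reprogramming cells at D5 and D7 had the highest WT means of Xaf1, Ifi35, Gbp2, Gbp3, Ifih1, Zc3hav1, Irf3, Oas1a, Oasl1, Isg20 and Parp12, and the pluripotent cells those of Ddx58, Adar, Samd9l, Trim25, Bst2, Parp9, Stat2, Ifitm1 and Parp14. Per kilobase of exon, the mean level was highest for Ifitm3 in WT MEFs (17236 normalised counts per kb), for Ifitm2 at D3, D5 and D7 in WT cells (2075, 2135 and 1349) and for Ifitm1 in WT iPSCs and ESCs (3905 and 6295). The Ifitm genes encode small membrane proteins that hinder virus entry.

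**Figure D1:**
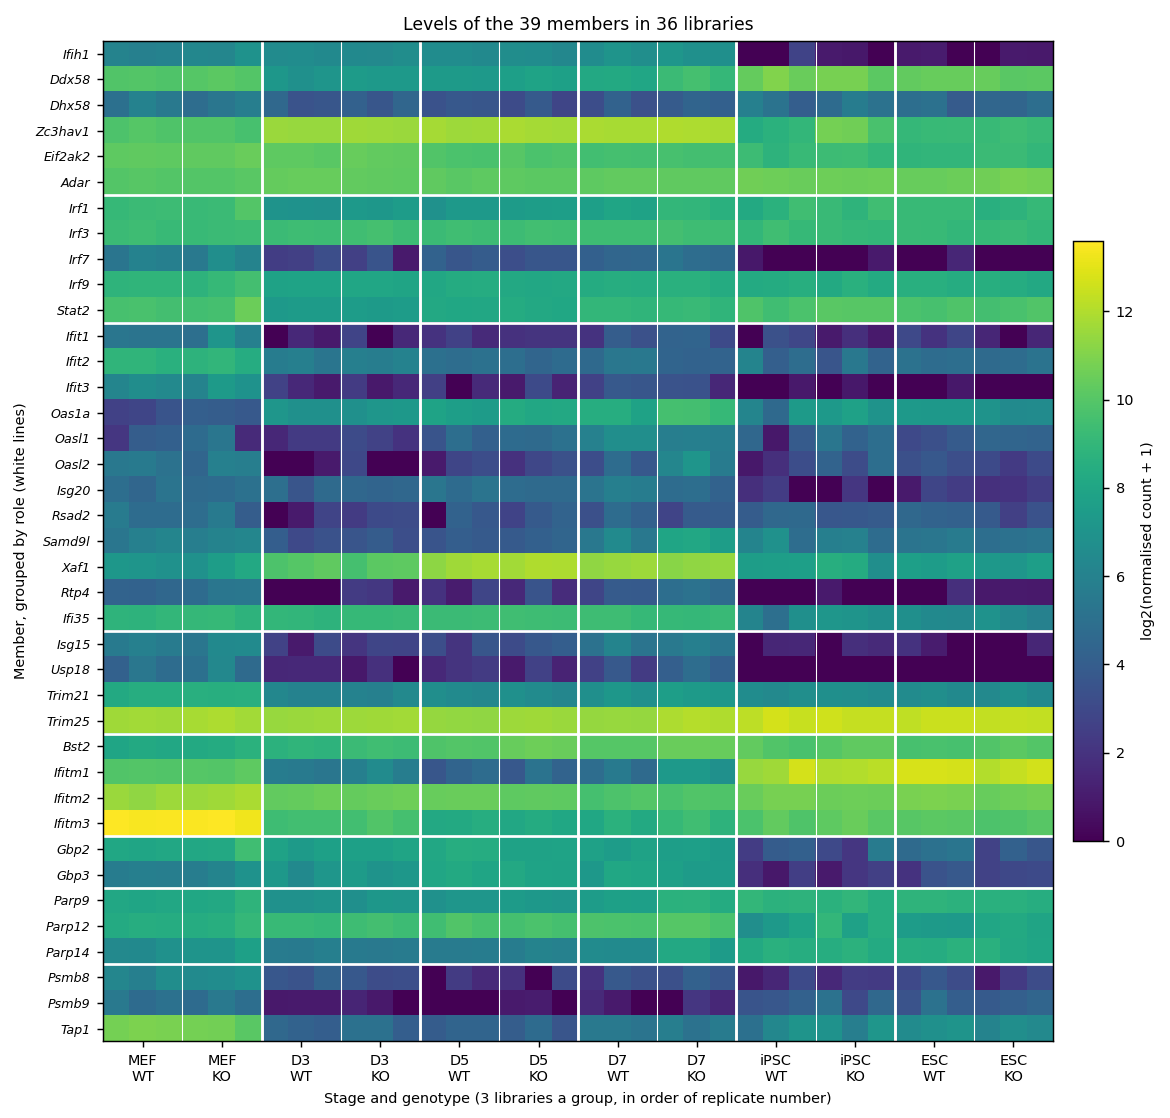
Level of each of the 39 members (rows, grouped by role) in each of the 36 libraries (columns, 3 a group), as log2 of the normalised count plus 1. Ifitm3 was the highest member in every MEF library and Ifitm1 was high in iPSCs and ESCs, while Usp18, Irf7, Ifit3 and Rtp4 were near 0 in iPSCs and ESCs.

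The summed level of all 39 members was 30529 ± 92.2 normalised counts in WT MEFs, 15309 ± 217 at D3, 18070.5 ± 469.6 at D5, 18697 ± 606 at D7, 21681 ± 2773 in iPSCs and 24205 ± 522 in ESCs (mean ± SD, n = 3 each). Without the 3 Ifitm genes the sum was 15008 ± 427 in WT MEFs, 13205 ± 76.2 at D3, 17449.8 ± 466 at D7 and 14343 ± 506 in ESCs. These sums were not tested, since the members were chosen with results of these data known. The number of members with at most 3 reads in each of the 3 libraries was 0 in WT MEFs, 5 at D3, 1 at D5, 1 at D7, 5 in iPSCs and 6 in ESCs.

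Between WT MEFs and WT cells at D3, 25 members were lower and 8 higher at an FDR under 0.05, so 33 of 39 were called, where 70.9% of all genes were called (37.1% lower and 33.8% higher). The median log2 fold change (log2FC) of the members was -1.92, against -0.01 over all genes tested. The antigen processing genes were all 3 lower. Tap1, a subunit of the transporter that carries peptides to MHC class I, was at 1706, 1904 and 1825 in the MEF libraries and at 22.9, 18 and 15.5 at D3 (log2FC -6.59 ± 0.38 SE, FDR 7.82e-67). Its neighbour Psmb9, an immunoproteasome subunit, was at 43.5, 25.7 and 32.9 in MEFs and had 1 read in each D3 library. The 2 genes share 212 exonic bases on opposite strands, and whether the counting used the strand is not stated.

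Of the membrane restriction factors, Ifitm3 was at 11992, 11405 and 11662 in WT MEFs and 667, 718 and 717 at D3 (log2FC -4.06 ± 0.15 SE, FDR 4.40e-156). Ifitm1 was at 949.6, 997 and 953 and 50.4, 45 and 39.7 (log2FC -4.42 ± 0.29 SE, FDR 3.59e-53). The groups did not overlap for either gene. Bst2, which encodes tetherin, a protein that holds budding virions at the cell surface, was higher at D3, at 425, 467 and 443 against 249, 299.9 and 279 in MEFs (log2FC 0.69).

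Among the sensors, Ddx58 was at 939, 981 and 923 in WT MEFs and 147, 111 and 135 at D3 (log2FC -2.86 ± 0.17 SE, FDR 2.15e-60). Zc3hav1, which encodes the zinc finger antiviral protein that binds CpG-rich viral RNA, went the other way, from 889, 1012 and 905 to 3007, 2903 and 2847 (log2FC 1.64). The sensor group was thus split, with Ifih1, Zc3hav1 and Adar higher and Ddx58 and Dhx58 lower. Of the 5 transcription factors, Irf1, Irf7, Irf9 and Stat2 were lower and Irf3, the constitutive factor that acts directly downstream of the sensors, was not called, at 609, 649.8 and 566 in MEFs and 621, 667 and 648 at D3. Stat2 was at 788, 815 and 732 and 159, 173 and 177 (log2FC -2.20 ± 0.18 SE, FDR 1.34e-33), and the ubiquitin ligase gene Trim21 at 303, 351 and 350.2 and 77, 65 and 64 (log2FC -2.29 ± 0.17 SE, FDR 7.94e-41). The libraries of the 2 groups did not overlap for either gene.

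Among the IFIT, OAS and other effectors 8 of 12 were lower and 2 higher. Isg15, the ubiquitin-like modifier, fell with them, from 45.2, 59.1 and 49.9 to 5.50, 1.0 and 7.75, and Ifit3 from 73, 98.4 and 82.8 to 5.50, 2.0 and 0.969. The 2 that rose were Oas1a, a 2'-5'-oligoadenylate synthetase, from 5.22, 6.06 and 10.6 to 141, 112 and 111, and Xaf1, from 148, 133 and 118 to 900.4, 1037 and 1242. Oas1a and Isg15 both hold overlapping ISRE cores in the printed stretches. Of the 15 members with an ISRE core in the window 9 were lower and 4 higher, and of the 19 with a window but no core 11 were lower and 4 higher. Oas1a lies in a cluster of near-identical genes and Ifit3 beside its copy Ifit3b, so that reads may be shared within these families.

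Fibroblast markers summed to 27903 to 37346 at D3, against 422919 to 438506 in MEFs, with 9 of 10 lower, and markers of macrophages and other blood cells to 121 to 242, against 612 to 672, with 3 of 7 lower. Their part in the fall of the members was not tested, and fewer cells of a type cannot be told apart from less RNA per cell in such bulk samples. The D3 cells also differed from the MEFs in sorting, medium and doxycycline. Of 70 other genes of the pathway in the table, 38 were lower and 16 higher at D3, against 37.1% and 33.8% of all genes. These pathway genes included 6 of 10 receptors and kinases lower and 2 higher, and 7 of 7 negative regulators lower. The 10 interferon genes looked up, Mx1, Mx2, Tlr7 and Tlr9 had no row in the count table under these symbols. They were therefore not analysed here.

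**Figure D2:**
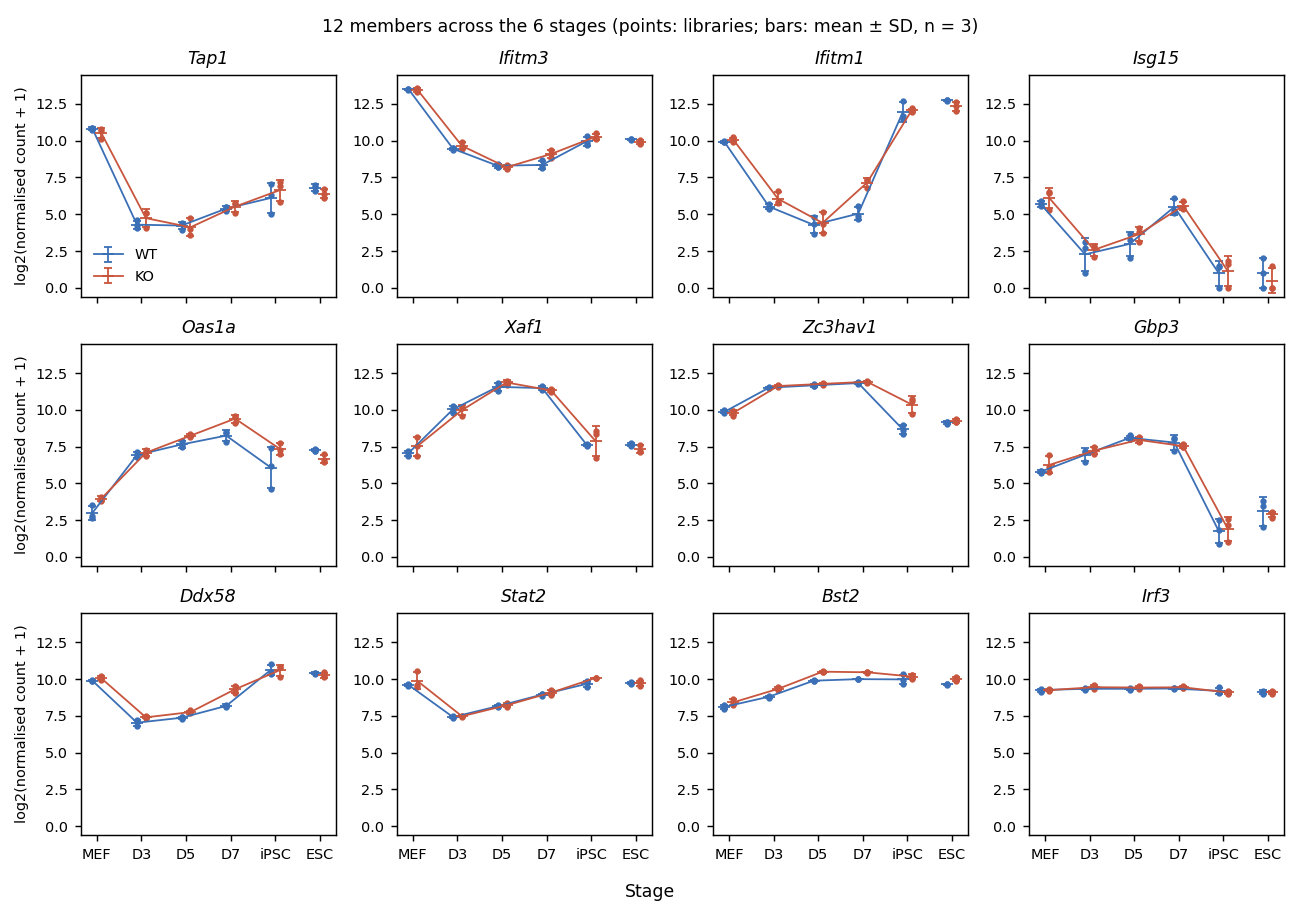
Course of 12 members over the stages in WT (blue) and KO (red) cells, as log2 of the normalised count plus 1, with points for libraries and bars for the mean ± SD (n = 3). ESCs are not joined to the line, since they are not a stage of reprogramming. Tap1, Ifitm3 and Isg15 fell between MEFs and D3, Oas1a, Xaf1 and Zc3hav1 rose, and Irf3 stayed between 502 and 765 normalised counts in all 36 libraries.

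From D3 to D5, 9 members were higher and 5 lower in WT cells, so 14 of 39 were called (25.1% of all genes, 12.4% higher and 12.7% lower). Bst2 was at 920.3, 977 and 941 at D5 (log2FC 1.09 ± 0.12 SE, FDR 9.70e-19), Xaf1 at 2477, 3164 and 3560.1 (log2FC 1.53 ± 0.27 SE, FDR 5.12e-07) and the guanylate-binding protein gene Gbp3 at 263, 306 and 253 (log2FC 1.12 ± 0.27 SE, FDR 0.000303). Ifitm3 and Ifitm1 were lower again, at 295, 302 and 347 (log2FC -1.15 ± 0.16 SE, FDR 1.98e-11) and at 11.6, 19.6 and 27.1 (log2FC -1.22 ± 0.34 SE, FDR 0.00269). The Ifitm1 call was lost with edgeR (log2FC -1.21, FDR 0.0504). Psmb8, an immunoproteasome subunit gene, had at most 4.13 normalised counts in a D5 library (log2FC -2.76 ± 0.75 SE, FDR 0.00203). Bst2 and Ifitm3, both membrane restriction factors, thus moved in opposite directions.

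From D5 to D7, 12 members were higher and 1, Ifitm2, was lower, so 13 of 39 were called, against 24.1% of all genes (13.5% higher, 10.7% lower). Isg15 was at 8.74, 3.10 and 11.5 at D5 and 33.5, 69.5 and 37 at D7 (log2FC 2.59 ± 0.51 SE, FDR 7.86e-06). Samd9l, whose product restricts poxvirus replication, was at 10.7, 15.5 and 13.5 and 42.6, 90.6 and 43.2 (log2FC 2.16 ± 0.43 SE, FDR 1.47e-05), and Oasl1 at 10.7, 28.9 and 16.7 and 62.9, 105 and 105 (log2FC 2.28 ± 0.59 SE, FDR 0.00126). D7 WT replicate 2 was the highest of the 3 D7 libraries in Isg15 and Samd9l, and the D5 and D7 groups did not overlap in either gene. In all, 7 members changed over 2-fold (5.81% of all genes did), among them Tap1 (log2FC 1.19), Psmb8 (log2FC 2.06) and Rtp4 (log2FC 1.72). Without D7 WT replicate 2, 8 members were called, where 3381 of 19357 genes tested were called, against 4770 of 19773 in the main fit. Without D5 WT replicate 1 or D7 WT replicate 3 the member count was 9. The calls of Tap1, Psmb8 and Rtp4 were lost without D7 WT replicate 2 and without some of the other libraries (FDR 0.0558 to 0.0867 for Tap1, 0.0769 to 0.204 for Psmb8 and 0.130 to 0.160 for Rtp4). With edgeR these 3 calls were also lost (FDR 0.0669, 0.0846 and 0.0612).

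Between WT cells at D7 and WT iPSC clones 13 members were higher and 18 lower, so 31 of 39 were called (73.5% of all genes, 35.8% higher and 37.7% lower). Ifitm1 had the lowest FDR, going from 28.4, 46.3 and 24.7 to 2849.9, 3216 and 6750.0 (log2FC 7.01 ± 0.29 SE, FDR 4.07e-123). Ddx58 was at 290.1, 306 and 268 and 1307, 2043 and 1449 (log2FC 2.47 ± 0.16 SE, FDR 4.31e-51) and Trim25, the ubiquitin ligase that acts with RIG-I, at 2741, 2897 and 2747 and 4769, 6640.2 and 5602 (log2FC 1.02 ± 0.08 SE, FDR 2.25e-33). These 3 genes were higher in every iPSC library than in any D7 library.

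Lower in iPSCs were Zc3hav1, at 332, 402 and 507 against 3748, 3544 and 3571 (log2FC -3.13 ± 0.16 SE, FDR 1.49e-86), Xaf1, at 188, 197 and 200.4 against 2592, 2895 and 3098 (log2FC -3.87 ± 0.28 SE, FDR 5.24e-43), and Ifi35, at 70, 30.1 and 109 against 652, 654 and 555 (log2FC -3.16 ± 0.21 SE, FDR 2.51e-49). Both guanylate-binding protein genes and 8 of the 12 IFIT, OAS and other effectors were lower, and none of these 14 was higher. Usp18, the protease that removes ISG15 from proteins and damps receptor signalling, had no read in any of the 12 iPSC and ESC libraries, which allows up to 3 reads in each. Ifih1 had at most 1.01 normalised counts in 11 of these 12 libraries and 5.57 in iPS WT replicate 3.

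Between WT ESCs and WT iPSCs 1 member, Bst2, was called (log2FC -0.36), of 22 members that passed the filter on low counts, where 3.2% of all genes were called (1.09% higher, 2.11% lower). This count depended on which libraries were fitted. iPS WT replicate 3 had Ifitm1 at 6750 against 2850 and 3216 in the other clones and Oas1a at 167 against 72.5 and 24.1, while the 3 ESC libraries had Ifitm1 at 6912, 6976 and 6771 and Oas1a at 159.7, 149.8 and 149. Without this clone 11 members were called, 9 higher in ESCs and 2 lower, with Ifitm1 and Oas1a among those higher. The share of all genes called in that fit is not given here, so this rise has no background to be set against. Without iPS WT replicate 1, or without any 1 of the 3 ESC libraries, 0 members were called.

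Between WT ESCs and WT MEFs 22 members were lower and 8 higher, so 30 of 39 were called (79.3% of all genes, 39.4% lower and 40% higher). The 8 that were higher in ESCs were Ddx58, Adar, Oas1a, Trim25, Bst2, Ifitm1, Parp9 and Parp14. Bst2 was at 781, 819.9 and 792 in ESCs (log2FC 1.53 ± 0.12 SE, FDR 7.73e-34) and Ifitm1, as given above, was far over its MEF level (log2FC 2.83). Ifitm3 was lower, at 1072, 1129.7 and 1109 (log2FC -3.40 ± 0.15 SE, FDR 4.53e-112), as were Tap1, at 94.4, 112 and 129 (log2FC -4.02 ± 0.34 SE, FDR 3.99e-32), Ifit2, at 34.1, 27.3 and 28.7 against 471, 476 and 387 in MEFs (log2FC -3.89 ± 0.34 SE, FDR 2.40e-30), the RNA-activated kinase gene Eif2ak2, at 475, 493 and 485 against 1209, 1234 and 1178 (log2FC -1.32 ± 0.12 SE, FDR 1.28e-29), and Trim21, at 93.4, 102 and 87.7 (log2FC -1.83 ± 0.16 SE, FDR 2.40e-29). Ifitm1 and Ifitm3 thus lay on opposite sides of their MEF levels.

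Loss of Zfp266 was then compared with WT at each stage. Of the 39 members, 20 were called in at least 1 of the 6 comparisons and 19 in none. Bst2 was called in 4, Oas1a, Oasl2 and Parp12 in 2 each, and the other 16 in 1. The members called in none included Ifit1, Ifit2, Ifit3, Isg15, Usp18, Rsad2, Irf7, Irf9, Stat2 and the 3 antigen processing genes.

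**Figure D3:**
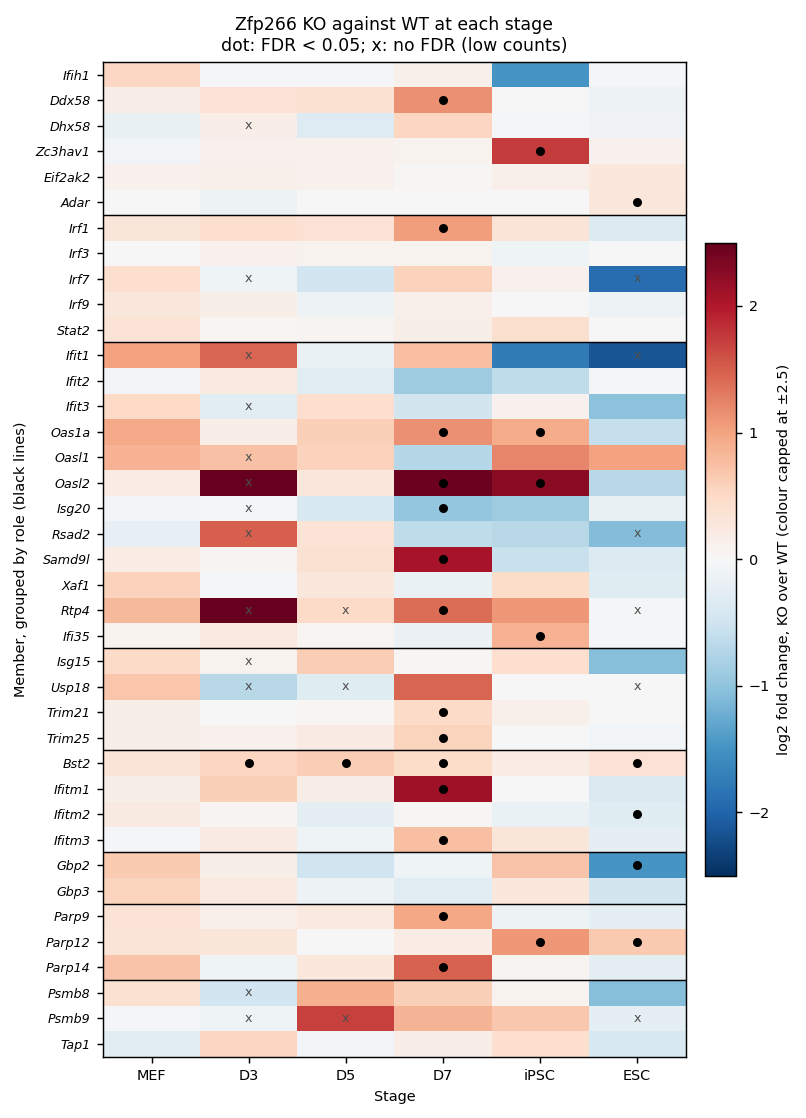
Log2 fold change of KO over WT for each member (rows, grouped by role) at each stage (columns), red for higher and blue for lower in KO, with a dot where the FDR was under 0.05 and a cross where counts were too low for an FDR. The day 7 column holds 14 dots, 13 of them on members higher in KO, and the MEF column none.

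In MEFs 0 of 39 members were called with DESeq2, and 0 with edgeR, where 0.0428% of all genes were called (0.0285% higher, 0.0143% lower). At an unadjusted p under 0.05 there were 8 of 39, against 7.83% of all genes. The fitted log2FC was above 0 in 31 of 39 members, with a median of 0.28, against 46.2% of all genes and a median near 0. The median was 0.43 without MEF KO replicate 1, 0.18 without replicate 2 and 0.11 without replicate 3. MEF KO replicate 3 had Stat2 at 1479 against 717 and 775 in the other KO libraries, Gbp2 at 697 against 285 and 291, and Irf1 at 1005 against 602 and 619. MEF KO replicate 2 had the highest Ifit1, at 136 against 29.9 and 60.4, and the highest Ifit3, Usp18 and Irf7. The WT MEF libraries had Ifit1 at 40, 36.4 and 36.1 and Stat2 at 788, 815 and 732. Without MEF KO replicate 1, 2 members were called, Irf9 and Parp14, both higher in KO, where 184 of 13123 genes tested were called.

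At D3 and D5 Bst2 alone was called, as higher in KO. It was at 425, 467 and 443 in WT and 605, 698 and 628 in KO libraries at D3 (log2FC 0.53 ± 0.12 SE, FDR 0.00260), and at 920.3, 977 and 941 and 1394, 1526 and 1423 at D5 (log2FC 0.61 ± 0.11 SE, FDR 4.33e-06). The genotypes did not overlap on either day. At D3 26 members passed the filter on low counts and 0.493% of all genes were called (0.374% higher, 0.119% lower), and at D5 36 passed and 7.15% were called (4.72% higher, 2.43% lower). Without D3 KO replicate 2 the D3 call was lost (FDR 0.0887). In a fit of the D5 libraries alone 6 members were called at D5, with Oas1a, Trim25 and Xaf1 also higher and Gbp2 and Ifitm2 lower. More genes of any kind were called in that fit, 2301 of 14953 tested, against 1265 of 17694 in the main fit.

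At D7 the KO cells had higher levels of 13 members and a lower level of 1, so 14 of 39 (35.9%) were called, against 29.4% of all genes. In the direction of higher levels in KO this was 13 of 39, against 13.3% of all genes, and in the other 1 of 39, against 16.1%. A change over 2-fold was called for 8 of 39, all higher in KO, against 8.37% of all genes. For each of the 14, and for 5 further members, the 3 libraries of one genotype lay apart from the 3 of the other. The share of all genes that lay apart in this way was not computed, so this count has no background to be set against. The median log2FC over the 39 members was 0.18, against -0.04 over all genes. Leaving out 1 library moved this median both ways. It was 0.42 without D7 WT replicate 2, 0.27 without D7 KO replicate 3 and 0.20 without D7 WT replicate 1. It was 0.16 without D7 WT replicate 3 and 0.13 without D7 KO replicate 1. The median without D7 KO replicate 2 is not given here. By promoter, 5 of the 15 members with an ISRE core were higher, 5 of the 19 with a window but no core were higher and 1 lower, and 3 of the 5 without a window were higher.

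The sensor Ddx58 (ENSMUSG00000040296, chromosome 4, 40203773 to 40239828, minus strand) was at 290.1, 306 and 268 in WT and 621, 753 and 539 in KO libraries (log2FC 1.15 ± 0.16 SE, FDR 1.45e-10). Trim25, the ligase that acts on the RIG-I protein, was at 2741, 2897 and 2747 and 3907, 4277 and 4072 (log2FC 0.55 ± 0.08 SE, FDR 2.36e-09). Each KO library exceeded every WT library for both genes. Ifih1, Dhx58, Zc3hav1, Eif2ak2 and Adar, the other sensors and RNA-binding effectors, were not called, with log2FCs of 0.13, 0.54, 0.09, 0.03 and -0.01.

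Of the 5 transcription factors Irf1 alone was called. It (ENSMUSG00000018899, chromosome 11, 53770014 to 53778374, plus strand) was at 201, 249.7 and 226 in WT and 506, 501 and 399 in KO cells (log2FC 1.05 ± 0.22 SE, FDR 2.37e-05), and it was the member printed above with a GAS and no ISRE core. The log2FCs of Irf3, Irf7, Irf9 and Stat2 were 0.08, 0.58, 0.12 and 0.14. The factors that bind the ISRE as a complex, STAT2 and IRF9, were thus not called at the RNA level.

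Of the 12 IFIT, OAS and other effectors, 4 were higher and 1 lower. Samd9l (ENSMUSG00000047735, chromosome 6, 3372257 to 3399572, minus strand) was at 42.6, 90.6 and 43.2 in WT and 254, 287 and 191 in KO cells (log2FC 2.05 ± 0.37 SE, FDR 6.18e-07). Oas1a (ENSMUSG00000052776, chromosome 5, 120896256 to 120907521, minus strand) was at 349.9, 352 and 226 and 759, 747 and 548 (log2FC 1.15 ± 0.33 SE, FDR 0.00344), and Oasl2 (ENSMUSG00000029561, chromosome 5, 114896936 to 114912234, plus strand), a related synthetase-like gene, at 8.11, 27.2 and 12.3 and 75.3, 137 and 49.9 (log2FC 2.46 ± 0.64 SE, FDR 0.000900). Of the 14 called members Oasl2 varied most among its KO libraries, relative to its mean, with replicate 2 highest, but all 3 lay above the WT libraries.

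Rtp4 (ENSMUSG00000033355, chromosome 16, 23520291 to 23614222, plus strand), a chaperone gene induced by interferon, was at 6.09, 14.1 and 13.4 and 29.1, 33.3 and 25.4 (log2FC 1.39 ± 0.52 SE, FDR 0.0305). Its call was lost with the replicate pairs as a block (log2FC 1.45, FDR 0.171) and when any 1 of WT replicates 1 and 3 and KO replicates 1, 2 and 3 was left out (FDR 0.0589 to 0.146), and it shares 296 exonic bases on the same strand with Gm45338. Isg20, a 3'-5' exonuclease gene, was the member lower in KO, at 36.5, 57.4 and 50.4 in WT and 27.1, 28.9 and 18.2 in KO (log2FC -0.96 ± 0.33 SE, FDR 0.0161). That call was lost without WT replicate 2 or 3 or KO replicate 3 (FDR 0.0612 to 0.101), with edgeR (FDR 0.0723) and in a fit of the D7 libraries alone (FDR 0.0517). The Ifit genes had log2FCs of 0.76 (Ifit1), -0.89 (Ifit2) and -0.46 (Ifit3), none of them called. Isg15, with 3 ISRE cores in the printed stretch, was at 33.5, 69.5 and 37 in WT and 44.2, 57.8 and 39.9 in KO cells, with overlapping groups.

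Of the membrane restriction factors Ifitm1, Ifitm3 and Bst2 were higher and Ifitm2 was not called (log2FC 0.02). Ifitm1 (ENSMUSG00000025491, chromosome 7, 140967221 to 140969825, plus strand) was at 28.4, 46.3 and 24.7 in WT and 162, 158 and 112 in KO cells (log2FC 2.11 ± 0.30 SE, FDR 1.21e-10), the lowest FDR of the set. Ifitm3 was at 277, 409 and 308 and 545, 674 and 446 (log2FC 0.75 ± 0.16 SE, FDR 3.19e-05). Bst2 was at 1010.2, 1030.1 and 1015 and 1407, 1429 and 1386 (log2FC 0.47 ± 0.11 SE, FDR 0.000238), with the narrowest spread within groups of the 14.

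Of the PARP family, whose members attach ADP-ribose to proteins, Parp14 (ENSMUSG00000034422, chromosome 16, 35832874 to 35871544, minus strand) was at 92.3, 90.6 and 90.5 in WT and 296, 289 and 178 in KO cells (log2FC 1.48 ± 0.22 SE, FDR 2.74e-10). Parp9 was at 185, 207 and 199.6 and 415, 424 and 325 (log2FC 0.98 ± 0.16 SE, FDR 3.45e-08), and Parp12 had a log2FC of 0.18 and was not called. Parp9 shares 458 exonic bases on the opposite strand with its partner gene Dtx3l, which was also higher, at 228, 282 and 260.3 and 570.3, 571 and 439 (log2FC 1.04 ± 0.18 SE, FDR 1.25e-07), and reads in that stretch cannot be told apart if strand was not used. Trim21 was at 107, 143 and 114 and 198, 166 and 145 (log2FC 0.48 ± 0.16 SE, FDR 0.0118), a call lost without WT replicate 1 or 3 or KO replicate 1 (FDR 0.0624 to 0.115). Gbp2, Gbp3, Psmb8, Psmb9 and Tap1 were not called, so neither the guanylate-binding proteins nor the antigen processing genes held a call at D7.

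**Figure D4:**
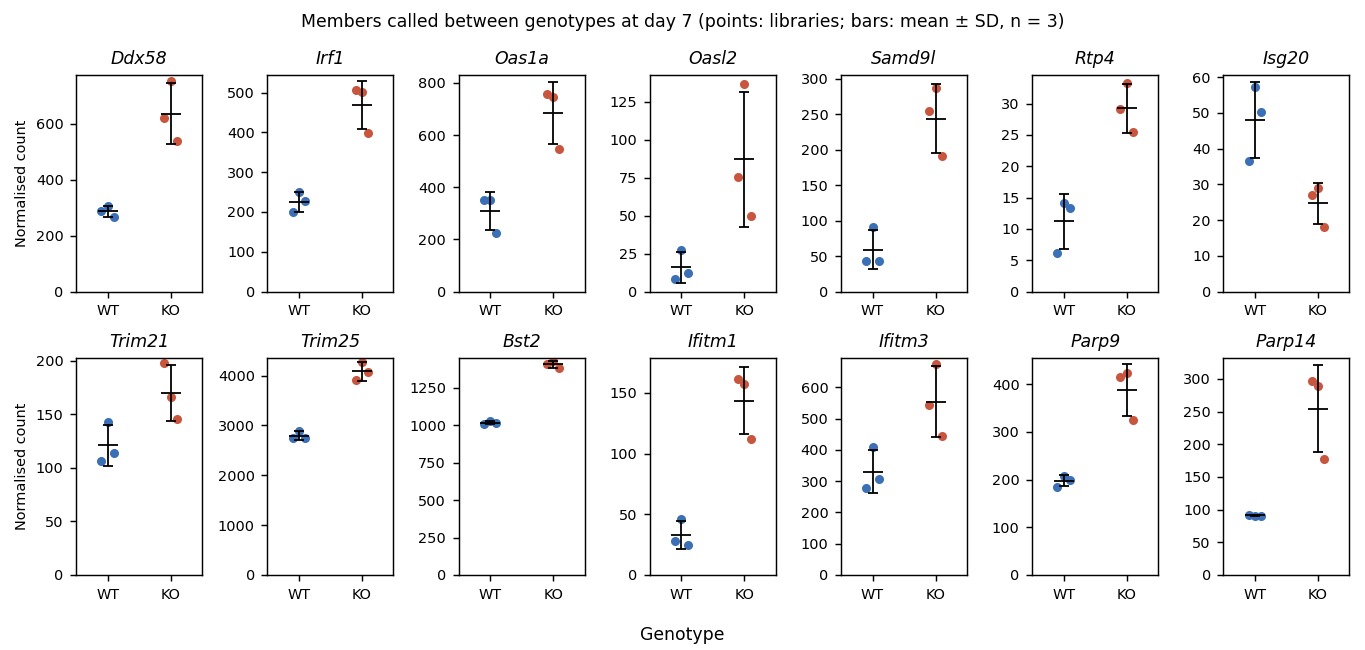
Normalised counts of the 14 members called between genotypes at day 7, with a point for each WT (blue) and KO (red) library and bars for the mean ± SD (n = 3), on axes that start at 0. The 3 KO points lie above the 3 WT points in 13 panels and below them for Isg20.

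The markers of cell state moved with this comparison. Pluripotent cell markers summed to 7846 to 12247 in the WT and 32761 to 41347 in the KO libraries at D7, with 10 of 10 higher in KO, and fibroblast markers to 25164 to 37795 and 8391 to 23382, with 4 of 10 lower. Epithelial markers summed to 57713 to 62611 and 57282 to 59791, and markers of macrophages and other blood cells to 366 to 729 and 546 to 580, with 0 of 7 called. The part of these shifts in the result was not tested. Of the 8 members called higher in ESCs when WT ESCs and MEFs were compared, 7 (87.5%) were among the 13 higher in KO at D7 (53.8% of those), with Adar as the exception, while 21.9% of all genes higher in ESCs than in MEFs were higher in KO at D7. Of the 22 members lower in ESCs, 4 (18.2%) were higher in KO and 1 lower, against 6.97% and 25.1% of all such genes. The libraries of the 2 comparisons were not shared.

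Among the 70 other genes of the pathway 16 were higher and 15 lower in KO at D7, against 13.3% and 16.1% of all genes. The interferon-induced genes of that list accounted for 13 of the higher and 10 of the lower ones. Pml, which encodes the scaffold of PML nuclear bodies, was at 1035, 1128 and 961 in WT and 2411, 2752 and 2230.4 in KO (log2FC 1.24 ± 0.16 SE, FDR 1.72e-12), Oas2 at 25.4, 21.1 and 18.5 and 98.4, 115 and 66.3 (log2FC 2.10 ± 0.35 SE, FDR 7.01e-08) and Oas3 at 1.01, 5.03 and 4.12 and 26.1, 21.9 and 13.6 (log2FC 2.60 ± 0.63 SE, FDR 0.000304). Of the 8 OAS and OAS-like genes among the members and this list, 5 were higher, namely Oas1a, Oasl2, Oas2, Oas3 and Oas1g (log2FC 1.38), and Oas1b, Oas1c and Oasl1 were not called (log2FC 0.47, 0.38 and -0.72). Near-identical copies among the Oas1 genes may share reads, and Oas1b, Oas1c, Oas1g and Oasl1 were named here after their values were seen. In the opposite direction, Nlrc5, which encodes the transactivator of MHC class I genes, was at 102, 142 and 127 and 25.1, 20.1 and 39 (log2FC -2.14 ± 0.39 SE, FDR 6.83e-07), and Cmpk2 at 107, 101 and 120.4 and 41.2, 42 and 58.1 (log2FC -1.21 ± 0.20 SE, FDR 1.61e-08). Of the 10 receptors and kinases 4 were lower and 0 higher, namely Ifnar2 (log2FC -0.78), Ifngr1 (-0.45), Ifngr2 (-0.99) and Il10rb (-0.80), which were named after their values were seen. These encode subunits of receptors for type I interferon, interferon gamma and, with Il10rb, interferon lambda and interleukin 10.

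The KO effect at D7 was larger than that in MEFs for 6 members in a test of the difference itself, and smaller for 0 (17.4% of all genes were called, 8.69% larger and 8.7% smaller). Ifitm1 (difference of log2FCs 1.96 ± 0.40 SE, FDR 3.07e-05) and Samd9l (1.86 ± 0.54, FDR 0.00607) differed by more than 1 (5.55% of all genes), and the others were Ddx58, Ifitm3, Trim25 and Parp9.

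In iPSC clones 5 members were higher in KO and 0 lower, so 5 of 39 (12.8%) were called, against 16.3% of all genes (9.72% higher, 6.63% lower). Zc3hav1 (ENSMUSG00000029826, chromosome 6, 38305286 to 38354603, minus strand) was at 332, 402 and 507 in the WT and 1717, 1585 and 836 in the KO clones (log2FC 1.74 ± 0.16 SE, FDR 4.47e-24). KO replicate 3 was the lowest of the KO clones, yet above each WT clone. Zc3hav1 was not called at D7 or in ESCs, where it was at 531, 579 and 585 in WT and 569, 662 and 589 in KO libraries, and its KO effect was larger in iPSCs than at D7 (difference 1.65 ± 0.22 SE, FDR 1.18e-11) and in ESCs (1.64 ± 0.22, FDR 2.52e-09).

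The other 4 members called in iPSCs had overlapping genotypes. Parp12 was at 103, 164 and 238 in WT and 511, 216 and 349.5 in KO clones (log2FC 1.09 ± 0.23 SE, FDR 7.25e-05), and Oasl2 at 0.864, 2.58 and 8.35 and 19, 7.81 and 29.3 (log2FC 2.26 ± 0.74 SE, FDR 0.0193). Ifi35 was at 70, 30.1 and 109 and 139.8, 130.2 and 108 (log2FC 0.87 ± 0.22 SE, FDR 0.00165), and Oas1a at 72.5, 24.1 and 167 and 157, 218 and 126 (log2FC 0.93 ± 0.34 SE, FDR 0.0439). In a fit of the iPSC libraries alone Zc3hav1 was the 1 member called, where 615 of 18932 genes tested were called. The call of Ifi35 was lost without WT replicate 2 (FDR 0.0513), that of Oasl2 without WT replicate 1 or 2 or KO replicate 1 or 3 (FDR 0.0635 to 0.126) and that of Oas1a without WT replicate 1 or 2 or KO replicate 1 or 2 (FDR 0.0956 to 0.285). With edgeR the call of Oas1a was lost as well (FDR 0.0558). Without KO replicate 1, 3 members were called.

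Of the 70 other pathway genes 14 were higher and 2 lower in KO iPSCs, against 9.72% and 6.63% of all genes. Ikbke, a kinase that activates IRF3, was at 2.59, 2.58 and 10.2 in WT and 36.9, 20.8 and 23.2 in KO clones (log2FC 2.42 ± 0.42 SE, FDR 8.78e-07). Tdrd7, Herc6, Irgm1 and Igtp were also higher, with log2FCs of 1.11, 1.98, 1.15 and 1.70. These 5 were low, with no KO clone above 73.9 normalised counts. Endothelial markers summed to 1073 to 1986 in WT and 2482 to 3387 in KO iPSC clones, most of it from Pecam1, at 1652, 667 and 1378 and 3123, 2216 and 3117. Of the 5 endothelial markers Pecam1 and Cdh5 were higher and Tek was lower in KO, with Cdh5 at 0 in each WT clone and at 15, 0.868 and 0 in KO clones. Fibroblast markers summed to 150.3 to 196 and 176 to 243, with 1 of 10 higher, and the part of these markers was not tested.

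The members that rose in KO at D7 were not called in iPSCs except Oasl2 and Oas1a, and the difference between the 2 stages was tested. The KO effect was smaller in iPSCs than at D7 for 6 members and larger for 3 (21.9% of all genes were called, 9.76% smaller and 12.1% larger). The differences of log2FCs were -2.10 for Ifitm1, -2.60 for Samd9l, -1.41 for Parp14, -1.16 for Ddx58 and -1.10 for Parp9. Trim25 was also smaller, and Zc3hav1, Ifi35 and Parp12 were larger. In KO iPSCs Ddx58 was at 1818, 1800.3 and 1136 and Parp14 at 357, 427 and 316, against 1307, 2043 and 1449 and 299.7, 400.4 and 353 in WT clones.

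**Figure D5:**
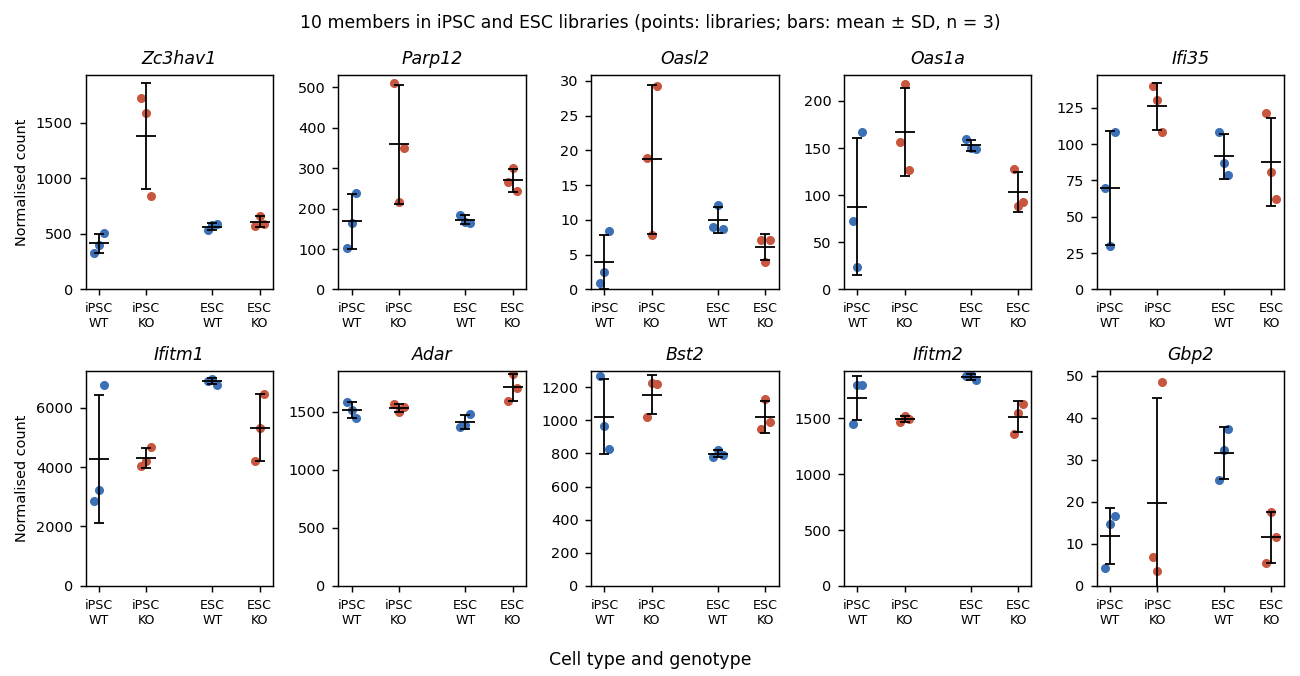
Normalised counts of 10 members in WT (blue) and KO (red) iPSC and ESC libraries, with a point for each library and bars for the mean ± SD (n = 3), on axes that start at 0. Zc3hav1 was higher in all 3 KO iPSC clones than in any WT clone and not in ESCs, and iPS WT replicate 3 lay at the ESC level of Ifitm1.

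In ESCs 3 members were higher and 2 lower in KO, of 33 that passed the filter, so 5 were called, against 10.1% of all genes (5.82% higher, 4.29% lower). Adar, which encodes an enzyme that edits adenosine to inosine in double-stranded RNA, was at 1364, 1381 and 1475 in WT and 1592, 1825 and 1706 in KO libraries (log2FC 0.28 ± 0.06 SE, FDR 0.000107). It was the 1 member called in every alternative fit, though it shares 1365 exonic bases on the opposite strand with Chrnb2. Bst2 was at 781, 819.9 and 792 and 947, 1128 and 987 (log2FC 0.36 ± 0.11 SE, FDR 0.0228) and Parp12 at 185, 168 and 164 and 266, 301 and 244 (log2FC 0.65 ± 0.23 SE, FDR 0.0481). The KO libraries exceeded the WT libraries for all 3 genes.

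Gbp2 (ENSMUSG00000028270, chromosome 3, 142620602 to 142638008, plus strand) was the 1 member with a change over 2-fold in ESCs (1.21% of all genes), at 25.1, 32.4 and 37.3 in WT and 5.39, 17.5 and 11.7 in KO libraries (log2FC -1.47 ± 0.49 SE, FDR 0.0318), and Ifitm2 was lower at 1881, 1892 and 1844 and 1364, 1549.7 and 1629 (log2FC -0.31 ± 0.10 SE, FDR 0.0355). With edgeR Adar was the 1 member called. Leaving out 1 library gave 1 to 3 calls in all 6 cases, and the calls of Bst2, Gbp2, Ifitm2 and Parp12 were lost in 4, 5, 5 and 6 of them (FDR 0.0510 to 0.185, 0.0544 to 0.179, 0.0633 to 0.194 and 0.0695 to 0.202). Of the 70 other pathway genes, 61 of which passed the filter, 7 were lower and 0 higher, against 4.29% and 5.82% of all genes. Among the lower ones were Irgm1, at 54.2, 54.7 and 55.6 and 10.8, 17.5 and 34.1 (log2FC -1.40 ± 0.34 SE, FDR 0.00184), and Gbp4, at 51.2, 67.8 and 55.6 and 32.3, 21.4 and 27.8 (log2FC -1.10 ± 0.38 SE, FDR 0.0454). Gbp4 had been higher in KO at D5, at 1.94, 3.10 and 0 in WT and 7.63, 13.6 and 10.8 in KO libraries (log2FC 2.66 ± 0.77 SE, FDR 0.0126). The fitted log2FC was above 0 in 6 of 39 members in ESCs, with a median of -0.22. Over all genes tested it was above 0 in 50%, with a median of 0.00. The member values cover all 39, of which 33 passed the filter. The number of members above 0 was 12 without ESC WT replicate 1 or 2, 11 without KO replicate 1 and 9 without KO replicate 2 or 3. The number without WT replicate 3 is not given here. The endothelial markers summed to 1749 to 1988 in WT and 2481 to 2989 in KO ESCs, most of it from Pecam1, at 1299, 1368 and 1449 and 2175, 2635 and 2532. Of the 5 Pecam1 was higher and Kdr was lower in KO, and their part was not tested.

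Between the pluripotent cell types the KO effect differed for Zc3hav1 alone (1.47% of all genes were called, 0.924% larger and 0.547% smaller), as given above, and this count also turned on iPS WT replicate 3. Without that clone 8 members were called, 7 with a larger effect in iPSCs and 1, Adar, with a smaller one. How many of all genes were called in that fit is not given here, so the rise cannot be read as particular to the members. The summed level of the members was 18697 ± 606 in WT and 22394 ± 997 in KO cells at D7, 21681 ± 2773 and 23659 ± 1249.9 in iPSCs and 24205 ± 522 and 22081 ± 1299 in ESCs, with no test.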

How the data were processed

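Stranded mRNA libraries had been made from 36 samples, 3 in each of 12 groups. The submitters' processing notes name FastQC, cutadapt, STAR, DESeq2 and GRCm38.p6, and the methods name Rsubread for counting reads over genes. The strand setting of the counting is not given in the sources used here. The authors deposited raw read counts for 21442 genes and a normalised signal, which is each count divided by 1 DESeq2 size factor per library. Both were used. The deposited tables of the authors' fold changes, p-values and FDR were not used except to pair identifiers with symbols, nor was a log matrix corrected for library preparation batches, which the labels do not give. Batch could therefore not be fitted and was not tested.

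All genes were fitted in DESeq2 1.42.0 (R 4.3.3) with 1 factor of 12 groups over 36 libraries, Wald tests, independent filtering and Benjamini-Hochberg FDR. A gene was called at FDR below 0.05, and a change over 2-fold also needed an absolute log2FC above 1. Some members had no FDR in some comparisons because of low counts. Fold changes, standard errors and FDRs in the text are from this fit, and differences of KO effects are contrasts of it. No p-value was computed for the members as a set. On simulated D7 counts for 21442 genes the DESeq2 step recovered 192 of 200 changed genes with 17 false calls, and edgeR 198 with 7. Only well expressed genes were changed, each 2-fold, with the same spread set for every gene and the D7 libraries fitted alone. These rates therefore do not cover members with few reads or a wider spread. Alternatives were edgeR 4.0.16 quasi-likelihood tests, TMM factors, a filter of at least 10 counts in 3 libraries, no independent filtering, fits of the compared groups alone, a replicate block and leaving out each library.

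Replicates are separate samples by their labels. Where nothing says that they came from separate cultures, p-values measure only the spread between these samples, which may be technical. WT and KO libraries of the same number deviated together at D3 (correlations of 0.101 to 0.456), D5 (0.0897 to 0.268) and D7 (0.172 to 0.392), as seen from the data and not the labels. At D3, however, WT replicate 2 was closer to KO replicate 3 (0.126) than to its own number (0.101). The main fit did not pair libraries. Only the replicate block paired the numbers, at every stage. Intervals from read counts cover counting error only.

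The 39 members and all other lists were chosen with earlier results of these data known. Named with values were Zfp266, members called with a change over 2-fold between genotypes (at most 20 a comparison, by FDR), the 6 such members of lowest FDR in each stage comparison and difference of effects, and up to 6 other pathway genes per genotype comparison, of which 1 is not reported here. Further members named as examples of their role were chosen after their values were seen. Positions are from GENCODE M21 and promoter sequence from RefSeq, both on GRCm38.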

Additional observations from a re-analysis of the deposited data

Results flagged for a closer look

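For 9 values the effect of the KO differed between stages or cell types by more than 1 on the log2 scale in the test of the difference itself (DESeq2, FDR below 0.05). Between MEFs and D7 the effect was larger at D7 by 1.96 for Ifitm1 and by 1.86 for Samd9l. Between D7 and iPSCs the difference, iPSC minus D7, was -2.10 for Ifitm1, -2.60 for Samd9l, -1.41 for Parp14, -1.16 for Ddx58, -1.10 for Parp9 and 1.65 for Zc3hav1. Between ESCs and iPSCs it was larger in iPSCs by 1.64 for Zc3hav1. These comparisons share the D7 and the iPSC libraries, so the values are not independent of each other. Cell state markers differed between genotypes at D7 as given above, and their part in these differences was not tested.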

How the results depend on the processing

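Of 832 values of 65 named gene results under the alternatives, 760 kept their direction and call, 72 lost the call and 0 reversed. The counts of called members that moved by more than 1.5 times were 6 (4 higher, 2 lower) at D5 and 1 in iPSCs in fits of the compared groups alone, against 1 and 5. In those fits 2301 of 14953 genes tested were called at D5 and 615 of 18932 in iPSCs. The main fit called 1265 of 17694 and 3436 of 21020. With edgeR the member counts were 1 for KO against WT in ESCs, against 5, and 8 for WT D7 against D5, against 13. For WT ESCs against iPSCs the count was 0 with edgeR, without independent filtering and in the compared groups alone, against 1. For the iPSC minus ESC difference it was 2 with TMM and 3 with the replicate block, against 1. With the replicate block the calls between genotypes were 0 in MEFs, 1 at D3, 1 at D5, 13 at D7, 6 in iPSCs and 4 in ESCs. In MEFs, iPSCs and ESCs the samples share only a number (correlations from -0.142 to 0.259), while at D5 the correlations were 0.0897 to 0.268. Every WT library was closest to its own number at D5 and D7, but not in MEFs, at D3, in iPSCs or in ESCs. As the mean of log2 values the summed level differed between genotypes by 0.25 in MEFs, 0.22 at D3, 0.13 at D5, 0.44 at D7, 0.24 in iPSCs and -0.22 in ESCs, against 0.08, 0.12, 0.14, 0.26, 0.13 and -0.13 for the log2 of the sum. The cause of these shifts was not tested.

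Leaving out 1 library gave 0 to 2 called members between genotypes in MEFs, 0 to 1 at D3, 1 at D5 in every case, 11 to 14 at D7, 3 to 7 in iPSCs and 1 to 3 in ESCs. The WT comparisons gave 31 to 33 for D3 against MEF, 10 to 15 for D5 against D3, 8 to 13 for D7 against D5, 29 to 32 for iPSC against D7, 0 to 11 for ESC against iPSC and 30 to 32 for ESC against MEF. The differences of effects gave 5 to 9 for D7 minus MEF, 8 to 11 for iPSC minus D7 and 1 to 8 for iPSC minus ESC. For most of these fits the share of all genes called is not given here, so the ranges have no background to be set against. TMM moved the median of all genes between WT ESCs and MEFs by 0.11, and members called there were 9 higher and 21 lower, against 8 and 22. Members with few reads, 3 or fewer per library for some, cannot show small changes at this depth.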
